A study of Mus musculus with 61 samples.

Results

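Mouse embryos labelled as Klf17 maternal knockouts (mKO, 3 libraries) were compared with embryos labelled as Klf17 paternal knockouts (pKO, 2 libraries) over all genes of the deposited genotype count table. These 5 libraries, chosen by their genotype labels, are 5 of the 61 samples of the series. The same table holds 3 libraries of wild-type controls (ctrl) and 3 of embryos labelled Klf17 KO with no parent named. All 4 groups came from in vitro fertilisation, were kept in medium with 2 mM 4-thiouridine (4SU) for 6 h and were collected at the stage that the series calls M2C. In this assay (SLAM-seq) the uridine analogue enters RNA made during the labelling time and is read out after alkylation; the libraries were primed on poly(A) tails. It is not given in the sources used here if reads without converted bases were counted too, so a level can include RNA made before labelling. The crosses, the Klf17 allele, the strain and the ages of the parents are not given either. The design text speaks of 10 embryos per sample for the labelling windows, so each library is read as a pool, and how the replicates were obtained is not stated.

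KLF17 belongs to the Krüppel-like factors, transcription factors that bind GC-rich and CACCC-containing DNA through zinc fingers at the end of the protein. The egg provides the early embryo with RNA and protein, the sperm with almost none, and the embryo's own genome starts transcription in steps that end in a strong wave at the 2-cell stage. A maternal knockout therefore addresses a product stored in the egg. Where the embryo inherits the mother's knockout allele, such a knockout also addresses the product made from that allele after fertilisation. A paternal knockout addresses only a product made from the father's allele after fertilisation. The question of the comparison is whether the parent that carried the knockout label matters for the transcripts of these embryos.

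To show regulatory sequence beside the values, the 250 bases before the annotated start of 3 genes are printed 5′ to 3′ in the direction of the gene, from RefSeq on GRCm38.p6. Stmn3 (chr2:181314501-181314750, minus strand) and Gja1 (chr10:56377050-56377299, plus strand) had lower counts in every mKO than in every pKO library, and Klf6 (chr13:5861239-5861488, plus strand), itself a Krüppel-like factor, had higher ones. The genes were picked after their values were seen. Capitals mark CACCC or its reverse complement GGGTG, and CCNCNCCC or its reverse complement GGGNGNGG, which may overlap one another.
Stmn3: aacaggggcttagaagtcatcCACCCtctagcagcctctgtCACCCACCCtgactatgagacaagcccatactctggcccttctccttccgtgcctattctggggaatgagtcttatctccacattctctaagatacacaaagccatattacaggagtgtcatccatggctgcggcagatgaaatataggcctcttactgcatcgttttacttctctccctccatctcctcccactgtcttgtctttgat
Gja1: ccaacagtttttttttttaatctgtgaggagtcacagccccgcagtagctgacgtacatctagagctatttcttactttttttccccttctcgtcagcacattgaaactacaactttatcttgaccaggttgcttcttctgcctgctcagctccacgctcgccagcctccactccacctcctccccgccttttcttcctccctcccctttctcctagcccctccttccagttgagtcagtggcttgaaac
Klf6: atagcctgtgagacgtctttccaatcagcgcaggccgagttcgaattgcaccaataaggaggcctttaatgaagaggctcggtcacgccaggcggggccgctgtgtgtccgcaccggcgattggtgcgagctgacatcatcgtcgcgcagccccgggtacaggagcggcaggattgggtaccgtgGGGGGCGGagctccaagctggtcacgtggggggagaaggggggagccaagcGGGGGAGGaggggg
The Stmn3 window held 3 matches to CACCC and 0 to CCNCNCCC on either strand, the Gja1 window held 0 of both, and the Klf6 window held 0 and 2. Of 32851 such windows in the RefSeq table, 52.0% held CACCC and 45.9% held CCNCNCCC on at least 1 strand, so these matches are a description of the letters only.

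The libraries differed within groups before any gene was considered. Total counts ran from 16932282 to 19048799 in mKO, 21821878 to 23018252 in pKO, 17858094 to 19876670 in ctrl and 14080264 to 15631152 in KO. On the first principal component of all tested genes (30.6% of the variance), mKO replicate 1 stood at 76.4, among the KO libraries (70.4 to 99.8). On the same axis mKO replicate 2 stood at -59.4, beside the controls (-52.6 to -22.7) and the pKO libraries (-87.9 and -58.1), and mKO replicate 3 stood at 2.8, between them. Every count below is therefore given with the 3 mKO libraries apart where the result turns on them. Oocyte and 2-cell markers were present in all 5 libraries: the 9 oocyte markers summed to 2141 to 3231 CPM (counts scaled to a common library total) in mKO and 1697 to 1818 in pKO libraries, the 9 2-cell markers to 1146 to 1476 and 1035 to 1162. The 11 counted of 12 cumulus markers summed to 22.4 to 81.8 CPM in mKO and 54.4 to 144.2 in pKO (Ptx3 at 0). The 7 sperm markers summed to 0.577 to 3.53 and 1.01 to 2.35 (Tnp2 at 0). The 7 blastocyst markers summed to 44.9 to 48.7 CPM in mKO and 17.9 and 42.7 in pKO (Cdx2 at 0, 4 of the 7 above 10 reads in every mKO and pKO library). These marker sums are scaled by total counts alone, without the TMM factors used for single genes. Those factors were 1.15 in mKO replicate 3 and 0.989 in pKO replicate 2, so whether the blastocyst sums overlap depends on the scaling. The part of these markers in the results below was not tested.

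Klf17 itself (ENSMUSG00000048626, chr4:117756659-117765666 on GRCm38.p6) was present in every library. It was counted at 359, 845 and 794 CPM in mKO replicates 1 to 3 and at 812 and 1015 CPM in pKO replicates 1 and 2. The controls gave 596, 805 and 746 CPM and the libraries labelled KO 673, 603 and 728 CPM. The mKO and pKO ranges overlapped, with mKO replicate 1 lowest of all 11 libraries. The log2 fold change of mKO against pKO was -0.46 (SE 0.33, edgeR's quasi-likelihood test with Benjamini-Hochberg adjustment, adjusted p = 0.592). Because the libraries labelled KO carried Klf17 counts in the range of the controls, and the allele is not given, the count of Klf17 cannot check any of the labels. Of the 39 other tested genes within 1 Mb of Klf17, 6 were lower and 1 higher in mKO at an unadjusted p below 0.05, 17.9% against 11.5% of all tested genes.

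No gene passed the test between mKO and pKO embryos. Of 16694 genes tested, edgeR called 0 higher and 0 lower at an adjusted p below 0.05 (percent called 0). At an unadjusted p below 0.05, 832 genes (4.98%) were higher and 1087 (6.51%) lower in mKO, and the 3 mKO libraries lay wholly above both pKO libraries in 1718 genes (10.3%) and wholly below in 2106 (12.6%). DESeq2 called 89 higher (0.567%) and 41 lower (0.261%) of the genes it tested. Scaling by total counts in place of TMM moved the median log2 fold change of all tested genes from 0.02 to 0.16 and gave 0 calls. Without the low-count filter edgeR called 65 higher (0.289%) and 71 lower (0.316%). Without mKO replicate 2, the library that lay with the controls, edgeR called 75 higher (0.453%) and 408 lower (2.46%). Of the 41 genes that DESeq2 called lower 27 were among those 408, and of the 89 it called higher 39 were among those 75. Both sets of calls rest on the same libraries apart from mKO replicate 2. The values that follow describe genes and groups that did not pass the main test, unless a sentence says otherwise.

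The genes that distinguish the libraries labelled KO from the controls were then examined, since that contrast sets only KO libraries against ctrl libraries. The filter, the scaling and the estimate of the spread behind its calls came from all 11 libraries, mKO and pKO included. There edgeR called 304 genes higher (1.82%) and 1054 lower (6.31%) in KO. The 1054 genes lower in KO had a median log2 fold change of -0.86 in mKO against pKO, where the median of all tested genes was 0.02, and 1038 of them (98.5%) had a fold below 0, as did 49% of all tested genes. Of these genes 517 (49.1%, against 6.51% of all tested genes) were lower in mKO at an unadjusted p below 0.05 and 0 higher. In 545 (51.7%, against 12.6%) all mKO libraries lay below both pKO libraries. The 304 genes higher in KO had a median of 0.65. Of them 276 (90.8%, against 50.8% of all tested genes) had a fold above 0. At an unadjusted p below 0.05, 82 (27.0%, against 4.98%) were higher and 1 lower. All mKO libraries lay above both pKO libraries in 103 (33.9%, against 10.3%). The calls in KO against ctrl rest on few libraries: edgeR called 0 without KO replicate 2, and 0 with the mitochondrial share of each library as a covariate.

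At the level of single genes, those past an unadjusted p below 0.05 lay mostly on the same side in both comparisons. In KO against ctrl 1678 genes (10.1%) were higher and 2617 (15.7%) lower at that threshold. Of the 1087 genes lower in mKO than in pKO, 813 (74.8%) were also lower in KO than in ctrl (31.1% of the 2617) and 7 were higher. Of the 832 genes higher in mKO, 278 (33.4%) were higher in KO (16.6% of the 1678) and 2 were lower. The comparisons share no library, but they share the scaling and the estimate of the spread.

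Library by library, mKO replicate 1 sat near the KO embryos and both pKO libraries near the controls. The median log2 difference from the control mean over the 1054 genes was -1.31, -0.09 and -0.77 in mKO replicates 1, 2 and 3, 0.10 and 0.29 in pKO, and -1.57, -1.64 and -1.55 in KO. For the 304 genes it was 1.17, 0.30 and 0.57 in mKO, 0.17 and -0.03 in pKO, and 1.62, 1.85 and 1.42 in KO. All 3 mKO libraries were thus below both pKO libraries in the first group and above both in the second, with mKO replicate 2 by the smallest margin. Counted gene by gene, 895 of the 1054 genes (84.9%) were nearer the KO mean than the control mean in mKO replicate 1, 46 (4.36%) in mKO replicate 2 and 506 (48.0%) in mKO replicate 3. In the pKO libraries 9 (0.854%) and 14 (1.33%) were. Without mKO replicate 1 the median of the 1054 genes was -0.53, and without mKO replicate 2 it was -1.23. The median of the 304 genes was 0.42 without mKO replicate 1.

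**Figure D1:**
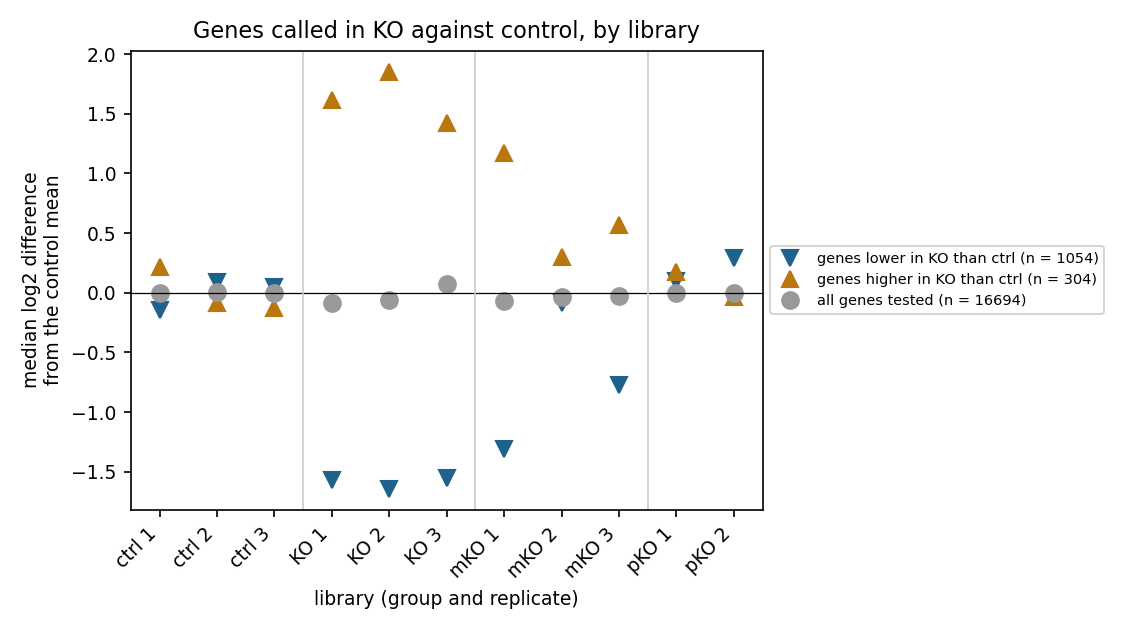
Median log2 difference from the control mean (vertical axis) in each of the 11 libraries (horizontal axis) for the 1054 genes called lower in KO, the 304 called higher in KO and all 16694 tested genes. The contrast of KO with control chose the genes, so the control and KO points were not free to vary. For the lower genes mKO runs from -1.31 to -0.09, and pKO from 0.10 to 0.29.

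Among the single genes with the largest difference between KO and ctrl, 12 were named as lowest in KO. All 12 had a lower level in mKO than in pKO by fold (log2 fold change -2.24 to -1.05), as did 49% of all tested genes. In 5 the groups did not overlap, where 12.6% of all tested genes lay wholly below pKO. In all 12 mKO replicate 1 was the lowest and mKO replicate 2 the highest of the mKO libraries. Stmn3, a microtubule-regulating stathmin, was counted at 9.65, 72.5 and 46.1 CPM in mKO and at 195 and 208 CPM in pKO, beside 138 to 165 CPM in ctrl and 8.24 to 14.9 CPM in KO (log2 fold change -2.24, SE 0.52, edgeR adjusted p = 0.326). Cpn1, the catalytic subunit of carboxypeptidase N, was at 2.92, 19.4 and 7.49 CPM in mKO and at 25.6 and 43.4 CPM in pKO. Gata1, a zinc finger factor of the blood lineage, overlapped between the groups at 18.4, 149 and 50.4 CPM in mKO against 103 and 225 CPM in pKO. Tead4, the TEA-domain factor that the trophectoderm needs, did so too at 4.49, 46.6 and 16.6 CPM against 27.1 and 77.4 CPM. In each of these 4 genes mKO replicate 1 lay farthest from pKO and mKO replicate 2 nearest.

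Of the 12 genes named as highest in KO, 11 had a higher level in mKO by fold, as did 50.8% of all tested genes. In 3 the groups did not overlap, where 10.3% of all tested genes lay wholly above pKO. The highest mKO library was replicate 1 in 9. Atf3, a stress-induced bZIP transcription factor, was at 18.96, 2.86 and 25.5 CPM in mKO and 0.927 and 2.92 CPM in pKO, beside 18.6 to 38.5 CPM in KO. Rnase4, a secreted ribonuclease, was at 23.8, 16.3 and 19.1 CPM in mKO and 3.90 and 2.97 CPM in pKO, above pKO in every mKO library (log2 fold change 2.52, SE 0.58, edgeR adjusted p = 0.326). Ahnak, a very large scaffold protein, was not separated, at 13.4, 1.93 and 7.39 CPM in mKO and 8.88 and 4.68 CPM in pKO.

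The genes that DESeq2 called, named here after their values were seen, lay on both sides, and in some of them mKO replicate 2 lay beside the other mKO libraries. Kyat3, a kynurenine aminotransferase, was at 13.97, 15.1 and 11.5 CPM in mKO and 78.6 and 51.7 CPM in pKO, beside 38.2 to 53.5 CPM in ctrl (log2 fold change -2.27, SE 0.41, edgeR adjusted p = 0.321, DESeq2 adjusted p = 0.000711). Gja1, the gap junction protein connexin 43, was at 17.7, 37.0 and 12.6 CPM in mKO and 118 and 79.9 CPM in pKO. Ctsc, the lysosomal protease cathepsin C, was at 184, 399 and 179 CPM in mKO and 955 and 834 CPM in pKO. The 3 genes had every mKO library below the controls as well as below pKO. Spic, an ETS-domain factor, was at 146, 304 and 179 CPM in mKO and 792 and 544 CPM in pKO, and Bhmt, which makes methionine from homocysteine and betaine, at 1.91, 15.7 and 2.46 CPM against 28.1 and 64.0 CPM. Of the 41 genes that DESeq2 called lower, 25 (61.0%, against 6.31% of all tested genes) were among the 1054 lower in KO, 2.37% of those.

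On the higher side, Taf7l, a germ-cell paralogue of a TFIID subunit, was at 80.7, 88.6 and 42.7 CPM in mKO and 13.5 and 16.0 CPM in pKO, beside 21.3 to 40.2 CPM in ctrl (log2 fold change 2.26, SE 0.42, edgeR adjusted p = 0.321, DESeq2 adjusted p = 0.000113). Cdo1, cysteine dioxygenase, was at 181, 215 and 173 CPM in mKO and 76.8 and 44.6 CPM in pKO. Pla2g4c, a cytosolic phospholipase, was at 813, 256 and 251 CPM against 136 and 99.8 CPM, and Ddx58, the viral RNA sensor RIG-I, at 35.9, 13.5 and 27.9 CPM against 5.90 and 7.23 CPM. In these 4 genes no mKO library overlapped pKO, and for Taf7l and Cdo1 mKO replicate 2 was the highest of the 3. Of the 89 genes that DESeq2 called higher, 16 (18.0%, against 1.82% of all tested genes) were among the 304 higher in KO.

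**Figure D2:**
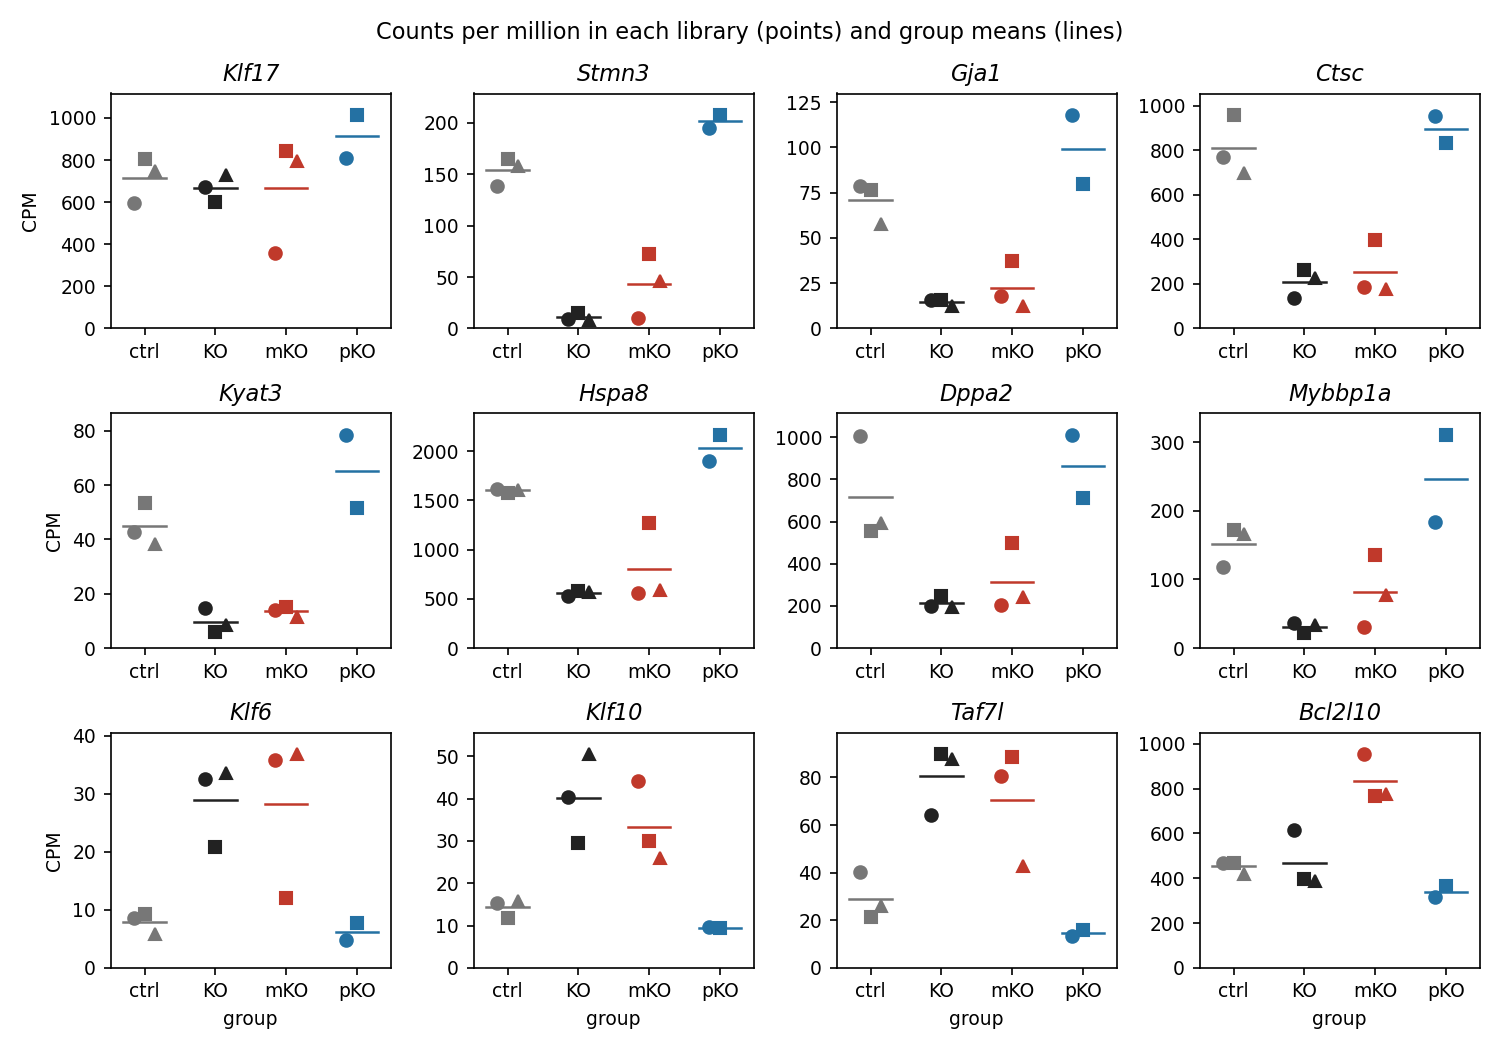
CPM (vertical axis, each from 0) of Klf17 and 11 other genes in the 4 groups; circles, squares and triangles are replicates 1, 2 and 3 and lines are group means. Klf17 overlaps between mKO and pKO, with mKO replicate 1 at 359 CPM, while Kyat3, Gja1 and Ctsc lie lower in all 3 mKO libraries and Klf6, Klf10, Taf7l and Bcl2l10 lie higher.

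Other members of the Krüppel-like and SP family were divided. Of 22 tested members, 4 (18.2%, against 4.98% of all tested genes) were higher and 2 (9.09%, against 6.51%) lower in mKO at an unadjusted p below 0.05. The median log2 fold change was 0.05, and 0.02, 0.09, 0.31, 0.22 and 0.24 without mKO replicates 1, 2 and 3 and pKO replicates 1 and 2. Klf6, an early response factor, was at 35.8, 12.0 and 36.8 CPM in mKO, 4.83 and 7.65 CPM in pKO, 5.78 to 9.19 CPM in ctrl and 20.8 to 33.6 CPM in KO (log2 fold change 2.17, SE 0.53, edgeR adjusted p = 0.326). Klf10, a TGF-beta-inducible repressor, was at 44.2, 30.0 and 25.9 CPM in mKO and 9.66 and 9.37 CPM in pKO, and DESeq2 called both (adjusted p = 0.00744 and 0.00266). Klf7 was at 48.3, 26.3 and 34.7 CPM in mKO and 23.4 and 10.6 CPM in pKO, and Klf2 at 7.80, 10.9 and 10.0 CPM against 20.8 and 21.3 CPM. Klf6, Klf10 and Klf7 did not overlap between the groups with mKO above, and Klf2 did not overlap with mKO below.

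Among transcription factors of genome activation and the early embryo, 5 of 22 (22.7%, against 6.51% of all tested genes) were lower and 2 (9.09%, against 4.98%) higher at an unadjusted p below 0.05, with a median log2 fold change of -0.26. The median was -0.09 without pKO replicate 1, -0.15 without mKO replicate 2 and -0.11 with scaling by total counts. Dppa2, a chromatin factor that acts with Dppa4 on early embryonic genes, was at 204, 500 and 241 CPM in mKO and 1012 and 712 CPM in pKO. Dppa4 was at 291, 492 and 328 CPM in mKO and 761 and 521 CPM in pKO. Obox6, an oocyte-specific homeobox gene, was at 346, 765 and 526 CPM against 1294 and 972 CPM, and its relative Obox1 ran the other way at 177, 76.6 and 88.0 CPM against 70.9 and 35.5 CPM. Obox genes lie in clusters of closely similar copies that can share reads, which makes the value of a single copy uncertain. None of these 4 genes overlapped between the groups, and in each of them mKO replicate 2 was the mKO library nearest to pKO.

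Lists of genes of protein production had low medians. Of the 27 lists only the 8 tested Y-linked genes had a lower median (-0.83) than ribosome biogenesis genes. Ribosome biogenesis genes had a median log2 fold change of -0.80 in mKO against pKO. At an unadjusted p below 0.05, 34 of 62 tested members (54.8%, against 6.51% of all tested genes) were lower and 0 higher, and 0 passed the adjusted test. The median was -1.21 without mKO replicate 2 and -0.52 without pKO replicate 2. By library, their median difference from the control mean was -0.99, -0.03 and -0.86 in mKO and 0.04 and 0.35 in pKO. Mybbp1a, a nucleolar MYB-binding protein, was at 31.0, 136 and 77.4 CPM in mKO and 183 and 311 CPM in pKO, and Pwp1, a nucleolar WD-repeat protein, at 73.3, 224 and 84.0 CPM against 319 and 340 CPM. Cytosolic ribosomal proteins had a median of -0.71, with 37 of 76 (48.7%, against 6.51%) lower and 0 higher at that threshold and all 76 with a fold below 0. Their median difference from the control mean was -0.71, -0.06 and -0.28 in mKO and 0.74 and -0.10 in pKO, so pKO replicate 1 alone lay far above the controls and pKO replicate 2 lay below mKO replicate 2. Without pKO replicate 1 their median was -0.23, and without mKO replicate 1 it was -0.45. Rps27, of the small subunit, was at 58.1, 66.6 and 67.1 CPM in mKO and 178 and 96.6 CPM in pKO. Ribosomal protein genes have many processed copies in the genome that can share their reads.

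Proteasome genes had a median of -0.61 with 6 of 39 lower, translation factors -0.49 with 15 of 62, RNA polymerase II machinery -0.42 with 5 of 43, and spliceosome genes -0.40 with 6 of 52; 0 members of these 4 lists were higher at an unadjusted p below 0.05. The shares lower were 15.4%, 24.2%, 11.6% and 11.5%, against 6.51% of all tested genes. Without mKO replicate 1 the 4 medians were -0.33, -0.28, -0.17 and -0.18. For translation factors the median was -0.76 without mKO replicate 2, and for RNA polymerase II machinery -0.23 without pKO replicate 1. Psmd14, the deubiquitinase of the proteasome lid, was at 92.4, 184 and 149 CPM in mKO and 327 and 229 CPM in pKO. Eif2b3, a subunit of the exchange factor of eIF2, was at 12.3, 52.3 and 16.1 CPM against 97.8 and 72.5 CPM, and Eef1d, an exchange factor of elongation, at 54.2, 111 and 60.8 CPM against 187 and 179 CPM. Supt5, the elongation factor SPT5, was at 34.8, 47.9 and 40.6 CPM against 60.8 and 113 CPM. Snrpa1, a U2 snRNP protein, was at 58.7, 140 and 98.7 CPM against 288 and 214 CPM. Every mKO library of these 5 genes lay below both pKO libraries. Nuclear-encoded respiratory chain genes had a median of -0.36 with 6 of 86 lower (6.98%, near the 6.51% of all tested genes). Their median was 0.02 without pKO replicate 1, -0.14 without mKO replicate 1 and -0.61 without pKO replicate 2. Mitochondrially encoded transcripts had a median of 0.30 with 0 of 10 past the unadjusted threshold, and medians of -0.10 without pKO replicate 2, 0.09 without mKO replicate 1, 0.46 without mKO replicate 2 and 0.84 without pKO replicate 1. The mitochondrial share of all counts was 5.82%, 4.19% and 5.46% in mKO and 5.63% and 3.73% in pKO, which overlapped (exact two-sided permutation p = 0.6, where 3 against 2 libraries cannot go below 0.1).

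**Figure D3:**
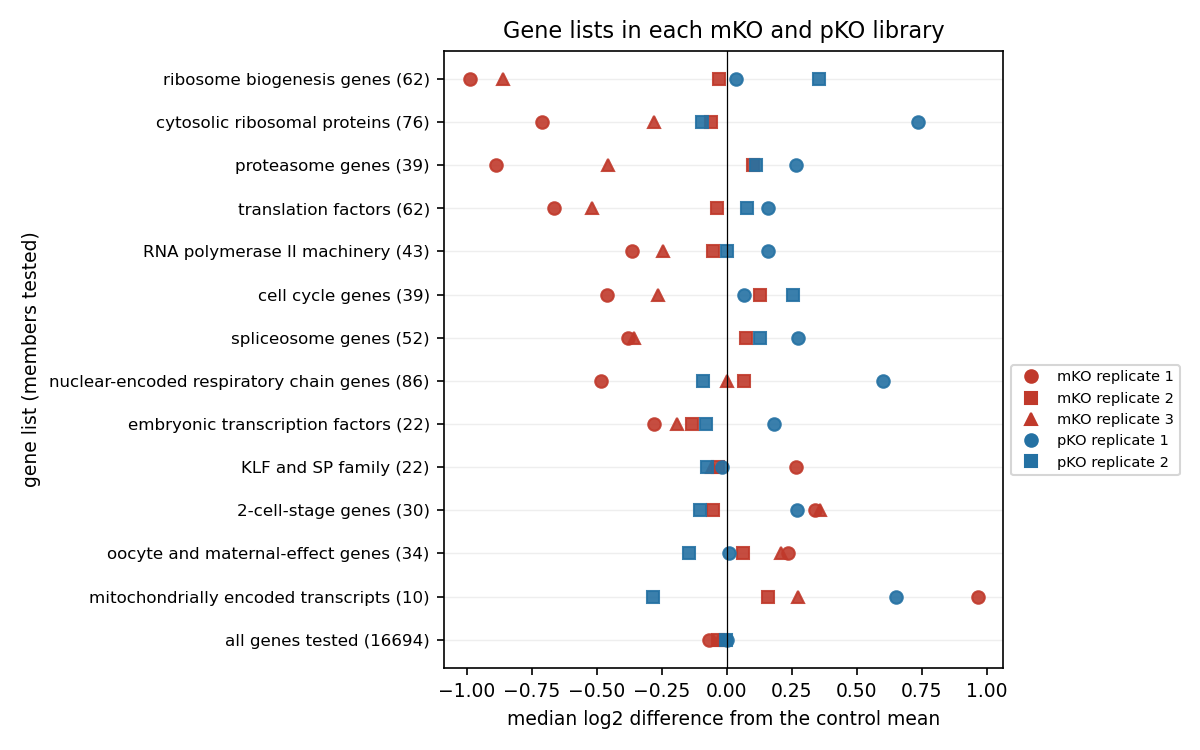
Median log2 difference from the control mean (horizontal axis) of 13 gene lists and of all tested genes in the 3 mKO libraries (red) and the 2 pKO libraries (blue); numbers in brackets are members tested. For ribosome biogenesis genes mKO replicates 1 and 3 lie at -0.99 and -0.86 and mKO replicate 2 at -0.03, close to pKO replicate 1 at 0.04.

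Of 34 oocyte and maternal-effect genes, whose transcripts are stored in the egg, 10 (29.4%, against 4.98% of all tested genes) were higher and 3 (8.82%, against 6.51%) lower in mKO at an unadjusted p below 0.05, with a median log2 fold change of 0.25 (0.24, 0.06 and 0.21 in mKO and 0.01 and -0.15 in pKO, as medians of the difference from the control mean). Control replicate 1 stood at 0.22 on the same measure, as high as the mKO libraries, and the median fold was 0.15 without pKO replicate 1 and 0.17 without mKO replicate 1. Bcl2l10, a BCL2-family protein abundant in eggs, was at 954, 766 and 778 CPM in mKO and 315 and 367 CPM in pKO (log2 fold change 1.29, SE 0.30, edgeR adjusted p = 0.326, DESeq2 adjusted p = 0.00744). The controls had 420 to 470 CPM and the KO libraries 387 to 616 CPM, so for Bcl2l10 the mKO libraries lay above every other group. Bmp15, an oocyte growth factor, was at 2339.7, 1205 and 1723 CPM in mKO and 995 and 835 CPM in pKO. Btg4, which links the CCR4-NOT deadenylase to maternal mRNA, was at 2583, 738 and 1087 CPM in mKO and 674 and 459 CPM in pKO. Of the 34 members 14 (41.2%, against 49% of all tested genes) had a fold below 0. Wholly above pKO lay 8 (23.5%, against 10.3% of all tested genes), and wholly below it 3 (8.82%, against 12.6%). Zp3, a zona pellucida glycoprotein, was among those 3 at 45.7, 82.5 and 54.3 CPM in mKO and 131 and 102 CPM in pKO.

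In the machinery of maternal mRNA decay, 5 of 33 tested genes (15.2%, against 4.98% of all tested genes) were higher at an unadjusted p below 0.05. At that threshold 2 (6.06%, near the 6.51% of all tested genes) were lower. The median was 0.08 (0.18 without mKO replicate 2, 0.02 without mKO replicate 1 and 0.01 without pKO replicate 1). Cnot6l, a catalytic deadenylase subunit, overlapped at 629, 127 and 236 CPM in mKO and 150 and 52.6 CPM in pKO. Ythdf2, a reader of m6A that marks RNA for decay, was lower without overlap at 373, 601 and 301 CPM in mKO and 872 and 866 CPM in pKO. Genes of the 2-cell stage were barely separated, with 1 of 30 (3.33%, against 4.98%) higher and 0 lower at that threshold and a median of 0.21. That median was -0.08 without pKO replicate 2, 0.13 without mKO replicate 3, 0.35 without mKO replicate 2 and 0.37 without pKO replicate 1. Zfp352, a zinc finger gene of this stage, overlapped at 627, 362 and 336 CPM in mKO and 343 and 282 CPM in pKO.

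The wild-type labelling windows of the series, named by hours post insemination (hpi), give sets of genes from other libraries. Genes that rose from 24-30hpi to 30-36hpi by at least 2-fold (2045 of the 16234 genes tested there, 12.6%, of which 2011 were tested here) had a median log2 fold change of -0.73 in mKO against pKO, with 572 (28.4%) lower and 3 higher at an unadjusted p below 0.05 and 707 (35.2%) wholly below pKO. Genes that fell in that step (3468, 21.4%, of which 3317 were tested here) had a median of 0.53. Of these, 399 (12.0%) were higher and 15 lower, and 706 (21.3%) lay wholly above pKO. Over all tested genes 6.51% were lower and 4.98% higher at that threshold, 12.6% lay wholly below pKO and 10.3% wholly above. For the 2517 genes (15.5%) rising from 18-24hpi to 24-30hpi the median was -0.54, for the 2202 (13.6%) rising from 12-18hpi to 18-24hpi -0.27, and for the 494 (3.04%) rising from 6-12hpi to 12-18hpi 0.04. The genes falling in those 3 steps (14.7%, 7.27% and 2.37% of the genes tested there) had medians of 0.41, -0.23 and -0.41. The later the rise in wild-type embryos, the lower the median in mKO against pKO also with any 1 of the 5 libraries left out. Genes rising and falling from 12-18hpi to 18-24hpi lay on the same side of 0. Without mKO replicate 1 the medians of the rising genes, from the earliest step to the last, were 0.07, -0.11, -0.26 and -0.43, and those of the falling genes -0.22, -0.08, 0.26 and 0.36. Without mKO replicate 2 the genes rising to 30-36hpi had -1.11 and those falling to 18-24hpi -0.36, the latter -0.08 without pKO replicate 2. For the earliest rise the median was 0.09 without mKO replicate 2, 0.18 without pKO replicate 1, -0.05 without mKO replicate 3 and -0.01 without pKO replicate 2. The sets and the genes lower in KO overlap. The 670 shared genes that rose to 30-36hpi are 33.3% of that set and 63.6% of the genes lower in KO. Of all tested genes 6.31% were lower in KO.

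By library, genes rising to 30-36hpi had a median difference from the control mean of -1.20, 0.02 and -0.61 in mKO and 0.11 and 0.31 in pKO. Genes falling to 30-36hpi had 0.74, -0.04 and 0.32 in mKO and -0.06 and -0.21 in pKO. In both sets mKO replicate 1 was farthest from the controls, mKO replicate 3 was next and mKO replicate 2 was within 0.04 of them.

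**Figure D4:**
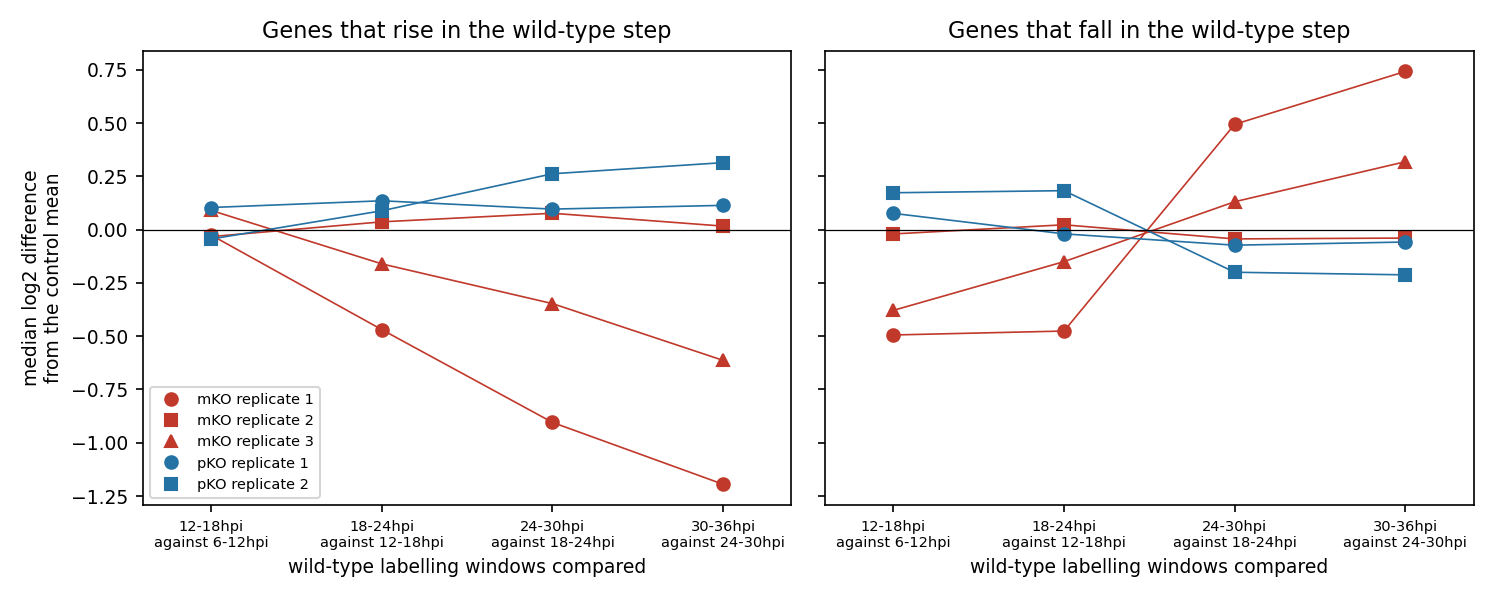
Median log2 difference from the control mean (vertical axis) of genes that rose (left) or fell (right) between successive wild-type labelling windows (horizontal axis), in each mKO (red) and pKO (blue) library. For the last step mKO replicates 1 and 3 reach -1.20 and -0.61 among rising genes, and mKO replicate 2 stays at 0.02.

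Of 18 trophectoderm genes, 2 (11.1%) were higher and 1 (5.56%) lower at an unadjusted p below 0.05, against 4.98% and 6.51% of all tested genes. By fold 14 were above 0, and 6 (33.3%, against 10.3% of all tested genes) lay wholly above pKO and 0 wholly below. Their median was 0.20, but 0.003 without mKO replicate 2, 0.30 without pKO replicate 1, 0.35 without mKO replicate 3, 0.46 without mKO replicate 1 and 0.85 without pKO replicate 2. Id2, an inhibitor of bHLH factors, was at 127, 62.9 and 107 CPM in mKO and 52.7 and 28.3 CPM in pKO. Of 19 pluripotency and inner cell mass genes 1 (5.26%, near the 6.51% of all tested genes) was lower. It was Gata4, a zinc finger factor, at 50.3, 70.7 and 94.4 CPM in mKO and 140 and 142 CPM in pKO. Of 39 cell cycle genes 4 (10.3%, against 6.51% of all tested genes) were lower and 2 (5.13%, near the 4.98%) higher. Ccnb1, cyclin B1, was at 1458, 2362 and 1315 CPM in mKO and 3172 and 2542 CPM in pKO, and Wee2, the oocyte kinase that inhibits CDK1, at 1432, 918 and 920 CPM against 536 and 702 CPM. Of 25 unfolded protein and heat shock genes 3 (12%, against 6.51%) were lower and 2 (8%, against 4.98%) higher. Hspa8, the constitutive HSP70 chaperone, was at 560, 1270 and 592 CPM in mKO and 1898 and 2168 CPM in pKO, below every control (1580 to 1618 CPM) in all 3 mKO libraries (log2 fold change -1.33, SE 0.32, edgeR adjusted p = 0.326, DESeq2 adjusted p = 0.0397).

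Genes whose expression depends on the parent of origin or on the sex chromosomes were examined because the groups differ in the parent. Of 22 maternally expressed imprinted genes 1 (4.55%) was higher and 1 (4.55%) lower at an unadjusted p below 0.05 (median 0.19). Of 24 paternally expressed ones 2 (8.33%) were higher and 1 (4.17%) lower (median 0.18). The shares of all tested genes were 4.98% higher and 6.51% lower. Igf2r, the maternally expressed mannose-6-phosphate receptor, was at 29.7, 17.6 and 12.0 CPM in mKO and 46.3 and 39.0 CPM in pKO, and Usp29, paternally expressed, at 108, 224 and 98.0 CPM against 310 and 298 CPM. Both were lower without overlap in mKO, while 15 of the 22 and 15 of the 24 genes had a fold above 0. The 2 paternally expressed genes that were higher at that threshold, Igf2, a growth factor, and Peg10, a retrotransposon-derived gene, lay wholly above pKO but at very low counts. Igf2 was at 1.40, 0.572 and 1.39 CPM in mKO and 0.0488 and 0.0464 CPM in pKO, and Peg10 at 0.561, 0.312 and 0.205 CPM against 0 and 0.0464 CPM. The median of the maternally expressed list was 0.36 without mKO replicate 2, 0.33 without pKO replicate 1, 0.30 without pKO replicate 2 and 0.29 without mKO replicate 1. That of the paternally expressed list was 0.73 without pKO replicate 2, 0.32 without mKO replicate 3, 0.29 without pKO replicate 1 and 0.10 without mKO replicate 1. X-linked genes had a median of 0.33, with 58 of 626 (9.27%, against 4.98%) higher and 14 (2.24%, against 6.51%) lower at that threshold. Their median difference from the control mean was 0.28, -0.10 and -0.15 in mKO and 0.005 and -0.50 in pKO, so pKO replicate 2 stood lowest; the median was 0.18 without pKO replicate 2, 0.17 without mKO replicate 1 and 0.66 without pKO replicate 1. Xist, the RNA that coats the inactive X chromosome, was at 18.6, 17.8 and 2.67 CPM in mKO and 6.64 and 5.24 CPM in pKO, with mKO replicate 3 below both. The 8 tested Y-linked genes summed to 39.7, 83.7 and 75.4 CPM in mKO and 122 and 98.4 CPM in pKO, without overlap (exact two-sided permutation p = 0.1, the smallest 3 against 2 libraries can give). The number of male and female embryos in each pool is not given, and its part in these values was not tested.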

How the data were processed

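The authors deposited read counts per gene (whole numbers, not normalized) for the genotype libraries and for the wild-type labelling windows. One window column holds a fractional value in 1 damaged record, so per the file headers it is a deposited count column handled here as estimated counts, rounded, with that record left out. Per the submitters' processing notes, Trim Galore 0.6.10, STAR 2.7.10a and SAMtools 1.12 were among the tools and mm10 and GRCm38 the builds; the counting program and its strand setting are not given in the sources used here. The table of embryo numbers and the ATAC-seq samples were not used here.

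The 11 genotype libraries were fitted together in 4 groups with edgeR 4.0.16 (TMM scaling, low-count filter at 10 reads in enough libraries and 15 in all, robust quasi-likelihood test, two-sided, Benjamini-Hochberg adjusted p below 0.05 over 16694 of 22911 genes). CPM are TMM-scaled. Columns named WT were matched to the libraries titled ctrl. A set median by library is the median over genes of log2 CPM less the control mean. Window sets needed an adjusted p below 0.05 and a log2 change of at least 1. DESeq2 1.42.0 and R 4.3.3 served the alternatives. In data simulated for mKO against pKO over 16694 genes, 5 of 100 2-fold and 39 of 100 4-fold changes were called, and 4 of 16494 unchanged genes. No 2 libraries of a group agreed within counting noise (chi-square per degree of freedom 87.3 to 279), and since nothing says how replicates were made, p-values reflect only library-to-library spread, which may be technical.

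The naming rule took Klf17, then called genes that reached 20 CPM in the higher group's mean, without overlap and with an informative symbol, the 14 highest and 14 lowest (0 passed), and up to 4 members of each list by smallest adjusted p, of which some are printed. The 12 and 12 genes named from KO against ctrl by the same rule, ranked by that fold, and the genes called by DESeq2 were added after values were seen. The libraries compared and the 27 lists were chosen with earlier results of these data known.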

Additional observations from a re-analysis of the deposited data

How the results depend on the processing

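Between mKO and pKO, 8 of the 10 settings other than leaving out a library called 0 genes with edgeR, as the main test did. Among these 8, the minimum absolute log2 fold change of 1 only filtered the calls of the main test, so it could give only 0. DESeq2 called 130 genes (89 higher, 41 lower) and edgeR without the low-count filter 136 (65 and 71). Leaving out 1 library in turn gave 0 to 483 calls, 0 to 75 of them higher and 0 to 408 lower, and only the fit without mKO replicate 2 gave any. Against ctrl, mKO gave 0 calls in the main test, 32 with DESeq2, 47 without the low-count filter and 0 to 110 with 1 library left out; pKO gave 0, 2 and 4. KO against ctrl (1358 calls) gave 2592 with DESeq2, 2237 without the low-count filter, 3166 with only the 2 groups, 2064 with the replicate block, 0 with the mitochondrial share as a covariate and 0 to 892 with 1 library left out (269, 0 and 586 without KO replicates 1, 2 and 3, and 892, 270 and 188 without ctrl replicates 1, 2 and 3). The cause of these differences was not tested.

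mKO and pKO share only replicate numbers 1 and 2, so the numbers were not taken to pair the libraries. Deviations from the group means correlated at 0.193 and 0.151 for the same number and at -0.193 to 0.066 otherwise. The deviations of the 2 pKO libraries mirror each other, so each mKO library correlates with them at equal and opposite values by construction. These correlations therefore cannot decide on pairing. The replicate block gave 0 calls in mKO against pKO and a Klf17 log2 fold change of -0.59 (edgeR adjusted p = 0.413). Klf17 stayed uncalled under all settings, at -0.66 to -0.07 with 1 library left out. The median of the 2-cell-stage genes was -0.03 with the replicate block. Ahnak reversed to -0.0036 with the replicate block and, with 1 library left out, ran from -0.43 to 0.69.

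The median of the genes lower in KO was -0.79, and of those higher 0.59, when DESeq2 chose them, an alternative added after seeing the data. The median of genes rising from 6-12hpi to 12-18hpi changed sign with the replicate block (-0.06), without mKO replicate 3 (-0.05), without pKO replicate 2 (-0.01) and with no fold minimum (-0.05). With 16932282 to 23018252 counts a library, replicates within mKO and within pKO differed by more than counting noise (chi-square per degree of freedom 87.3 to 279). How much counting error adds for genes at very low counts was not tested.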

Other observations

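Some genes separated mKO from pKO while KO and ctrl stood close together. The rule asked for an informative symbol, at least 20 CPM in the higher group's mean, no overlap and an unadjusted p below 0.05. The KO against ctrl log2 fold change had to lie within 0.25 of 0. Of 16694 tested genes 47 met this rule, 30 higher and 17 lower in mKO. Among all tested genes 11.5% passed that p threshold, and 10.3% lay wholly above and 12.6% wholly below pKO. The rule was chosen after the values were seen, so no test is given. Bcl2l10 had the smallest p among them. Zfp738, a zinc finger gene, was at 9.42, 12.3 and 5.70 CPM in mKO and 43.1 and 29.4 CPM in pKO, beside 20.5 to 27.2 CPM in ctrl and 11.4 to 37.0 CPM in KO. Fam118a was at 126, 132 and 120.5 CPM in mKO and 214 and 224 CPM in pKO, with little spread within either group. Smad1, a transducer of BMP signals, was at 50.2, 29.5 and 42.9 CPM in mKO and 7.71 and 23.9 CPM in pKO, beside 18.6 to 22.5 CPM in ctrl. Tcl1b1, of the oocyte-expressed Tcl1 cluster, was at 2297, 928 and 1872 CPM in mKO and 925 and 568 CPM in pKO, where mKO replicate 2 lay just above pKO replicate 1.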
